A study of Homo sapiens with 6 samples.

Results

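The 10 genes described here encode enzymes that build heparan sulfate chains and place sulfate on them, namely EXT1, EXT2, EXTL2, EXTL3, NDST1, NDST2, GLCE, HS2ST1, HS6ST1 and HS6ST2. They were taken by symbol from the 36932 rows of the expression table that carry a gene symbol of their own, and all 10 were found. The set was put together around HS2ST1, which had stood out in the comparison of knockdown with control in earlier work on these data. Values of that comparison are therefore given for the 10 genes as a description, without a test. The genes passed a filter of at least 1 CPM (read counts scaled to library size) on average over the libraries in 8 cases, and NDST2 and HS6ST2 did not.

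The study sequenced polyadenylated RNA of MDA-MB-231, an established human line of triple negative breast cancer, after knockdown of DDX18, a nucleolar DEAD-box RNA helicase. There were 6 libraries in 3 groups of 2, labelled control, DDX18 knockdown (colony 1) and DDX18 knockdown (colony 2). Each knockdown group is a single colony of the same line, so replicates share a colony. How the knockdown was made and what the controls received was not given in the sources used here. The labels do not say that replicates were separate cultures, so the spread between them may be technical. Except where the knockdown is taken as 1 group, the SEs, intervals and p-values below rest on that spread. They do not measure variation between colonies.

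DDX18 stood at 78.8 and 91.7 CPM in the controls and between 14.0 and 17.6 CPM in the 4 knockdown libraries. The smallest step of each column implied 8843847 to 11902437 reads a library. The line's mesenchymal markers VIM, CD44, AXL and MSN summed to 4024 CPM or more in every library, ESR1 lay at or below 0.201 CPM and PGR was listed at 0. ERBB2, amplified in another class of breast cancer, was present at 102 to 134 CPM and was lower in knockdown (log2 difference −0.26, limma adjusted p = 0.0023). Of the line's own markers, CD44 (log2 difference 0.74, limma adjusted p = 4.0e-12) and MSN (0.42, limma adjusted p = 1.1e-07) were higher in knockdown. VIM and AXL were not called. Leukocyte markers summed to at most 1.501 CPM and endothelial ones to at most 0.409 CPM, with PECAM1 not analysed here. The 4 fibroblast markers summed to 155 and 175 CPM in control and to 63.5 to 86.4 CPM in knockdown, and the 6 luminal markers to 1541 and 1588 against 1000 to 1065 CPM. COL1A1, COL1A2, LUM, KRT8 and KRT18 were lower by limma, PDGFRB and CDH1 were higher, and GATA3 and EPCAM were not called. The part of these shifts in the results below was not tested. In bulk RNA of a single line, a smaller share of cells with a transcript and less of it per cell cannot be told apart.

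Heparan sulfate is a linear sugar chain carried by syndecans, glypicans and matrix proteoglycans. In the Golgi, a linker is built on the core protein, EXTL3 adds the sugar that commits it to heparan sulfate, and the EXT1 and EXT2 proteins together extend the chain. NDST enzymes then exchange acetyl groups for sulfate on glucosamine, GLCE turns glucuronic into iduronic acid, and HS2ST1, the HS6ST enzymes and the HS3ST enzymes add sulfate at the 2-O, 6-O and 3-O positions. The sulfate comes from the donor PAPS, made in the cytosol and carried into the Golgi. The resulting pattern decides which growth factors and receptors the chain binds, and breast cancer cells use it in signalling by fibroblast growth factors.

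Across the 8 detected enzymes, HS2ST1, GLCE, HS6ST1 and EXT1 were higher in knockdown and NDST1, EXTL2, EXTL3 and EXT2 were lower, in both colonies. A 7-base sequence, GTAAGCA, earlier tied to the knockdown changes of these same libraries, occurs in the 3′ untranslated region of 3 of the 4 higher enzymes and of none of the 4 lower ones. The windows below show these occurrences, read from GENCODE release 29 transcripts on GRCh38, 5′ to 3′ on the transcript strand, with the 7 bases in capitals. They lie at chr1:87106476-87106504 on the plus strand for HS2ST1, at chr15:69269874-69269902 on the plus strand for GLCE and at chr2:128266824-128266852 on the minus strand for HS6ST1.
HS2ST1: ttcaccatactGTAAGCAttttaggtaga
GLCE: agttatataatGTAAGCAcaactaaaatg
HS6ST1: gcatatccgttGTAAGCAcgtgccctgtg
The flanking bases differ between the 3 genes. Only the transcript strand of the longest annotated 3′ untranslated region of each gene was searched. Such a region was found by symbol for 12135 tested genes, and 991 of these, 8.17%, held the sequence. The regions of the 8 enzymes had a median length of 2900 nt against 1360 nt over those genes, and no matching for length was done. The sequence was chosen from the changes themselves, so its presence here is a description and supports nothing about them. EXT1, also higher in knockdown, has a region of 5222 nt without it.

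The 2-O-sulfotransferase gene HS2ST1 (ENSG00000153936) spans 86914648 to 87109998 on the plus strand of chromosome 1. It was read at 15.7 CPM in each control library, at 55.8 and 55.6 CPM in colony 1 and at 55.0 and 55.8 CPM in colony 2. The 4 knockdown values lay within 1 CPM of each other and far from both controls. The group means were 15.7 ± 0.0127 CPM in control, 55.7 ± 0.179 in colony 1 and 55.4 ± 0.552 in colony 2 (SD, n = 2), a ratio of 3.53 between the knockdown and the control mean. On the log2(CPM + 1) scale, which makes changes of weakly expressed genes smaller, the difference was 1.76 (SE 0.09). Implied reads numbered 154 and 157 in control and 516 to 675 in knockdown. At these counts the counting error alone is larger than each of the SDs above, so the closeness of the libraries is no measure of precision. HS2ST1 stood in place 6 of 13675 tested genes by its difference, which is the value it was chosen on. On the same strand, 9.69% of its exonic bases are shared with AC093155.3, a protein coding gene model that runs on beyond its 3′ end, and the sources used here do not give how shared reads were counted.

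GLCE (ENSG00000138604), the epimerase whose product is the usual substrate of the 2-O-sulfotransferase, lies on the plus strand of chromosome 15 from 69160584 to 69272217. Its level was 21.1 and 24.7 CPM in control, 34.7 and 35.1 in colony 1 and 35.4 and 37.6 in colony 2. All 4 knockdown libraries were above both controls, at a ratio of 1.56 and a log2 difference of 0.62 (SE 0.10). Without control replicate 1 the difference was 0.51 and without control replicate 2 it was 0.73.

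HS6ST1 (ENSG00000136720), a 6-O-sulfotransferase, lies on the minus strand of chromosome 2 from 128236716 to 128318577. It was read at 58.4 and 50.8 CPM in control, 79.2 and 73.3 in colony 1 and 93.7 and 76.0 in colony 2. Every knockdown library was above both controls, and colony 2 replicate 1 was the highest, with an SD of 12.5 CPM in that colony against 4.17 in colony 1. The ratio of means was 1.47 and the log2 difference 0.55 (SE 0.09). Its pseudogene HS6ST1P1 stood at 0.201 CPM or less, so few reads were assigned there. The sister gene HS6ST2 (ENSG00000171004), on the X chromosome from 132626016 to 132961395, had 1 implied read in control replicate 1, 1 in colony 2 replicate 1 and 0 in the other 4 libraries. A count of 0 allows up to 0.244 to 0.324 CPM at these depths (3 reads, counting error only), so no difference in HS6ST2 was detectable.

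The bifunctional N-deacetylase and N-sulfotransferase NDST1 (ENSG00000070614) lies on the plus strand of chromosome 5 from 150485818 to 150558211. It was read at 254 and 235 CPM in control, 175 and 180 in colony 1 and 196 and 192 in colony 2. All knockdown libraries were below both controls, with colony 1 the lower of the colonies. The knockdown mean was 76.0% of control and the log2 difference −0.39 (SE 0.06). NDST2 (ENSG00000166507), on the minus strand of chromosome 10 from 73801911 to 73811798, was read at 0.204 and 0 CPM in control, at 0 and 0.606 in colony 1 and at 0.489 and 0.108 in colony 2, which is 0 to 6 implied reads. Of its exonic bases, 82.9% are also exonic in AC022400.6, a protein coding gene model on the same strand. Since the treatment of shared reads is not known, the level of NDST2 mRNA cannot be read from these values.

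Chain polymerisation needs both EXT1 and EXT2, whose products work as a complex, and their mRNAs differed in direction. EXT1 (ENSG00000182197), on the minus strand of chromosome 8 from 117794490 to 118111853, was read at 283 and 276 CPM in control, 337 and 352 in colony 1 and 354 and 357 in colony 2. All 4 knockdown values were above both controls, at a ratio of 1.25 and a log2 difference of 0.32 (SE 0.05). EXT2 (ENSG00000151348), on the plus strand of chromosome 11 from 44095549 to 44245429, was read at 147 and 144 CPM in control, 125 and 123 in colony 1 and 121 and 113 in colony 2. Here every knockdown value was below both controls, at 82.9% of the control mean and a log2 difference of −0.27 (SE 0.06).

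The EXT-like genes were both lower. EXTL3 (ENSG00000012232), which starts the chain, lies on the plus strand of chromosome 8 from 28600469 to 28755599. It stood at 64.5 and 64.3 CPM in control, 51.0 and 53.9 in colony 1 and 48.7 and 50.8 in colony 2, a log2 difference of −0.33 (SE 0.08). EXTL2 (ENSG00000162694), a transferase that can stop the growth of the chain at the linker, lies on the minus strand of chromosome 1 from 100872372 to 100895998. Its level was 35.8 and 32.8 CPM in control, 29.5 and 25.1 in colony 1 and 24.9 and 25.9 in colony 2, a log2 difference of −0.37 (SE 0.10). For both genes every knockdown library was below both controls, and the 2 colonies of EXTL2 overlapped each other. An antisense gene covers 8.88% of the exonic bases of EXTL2 and another covers 3.06% of those of EXTL3, and the sources used here do not give the strand setting of the counting.

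**Figure D1:**
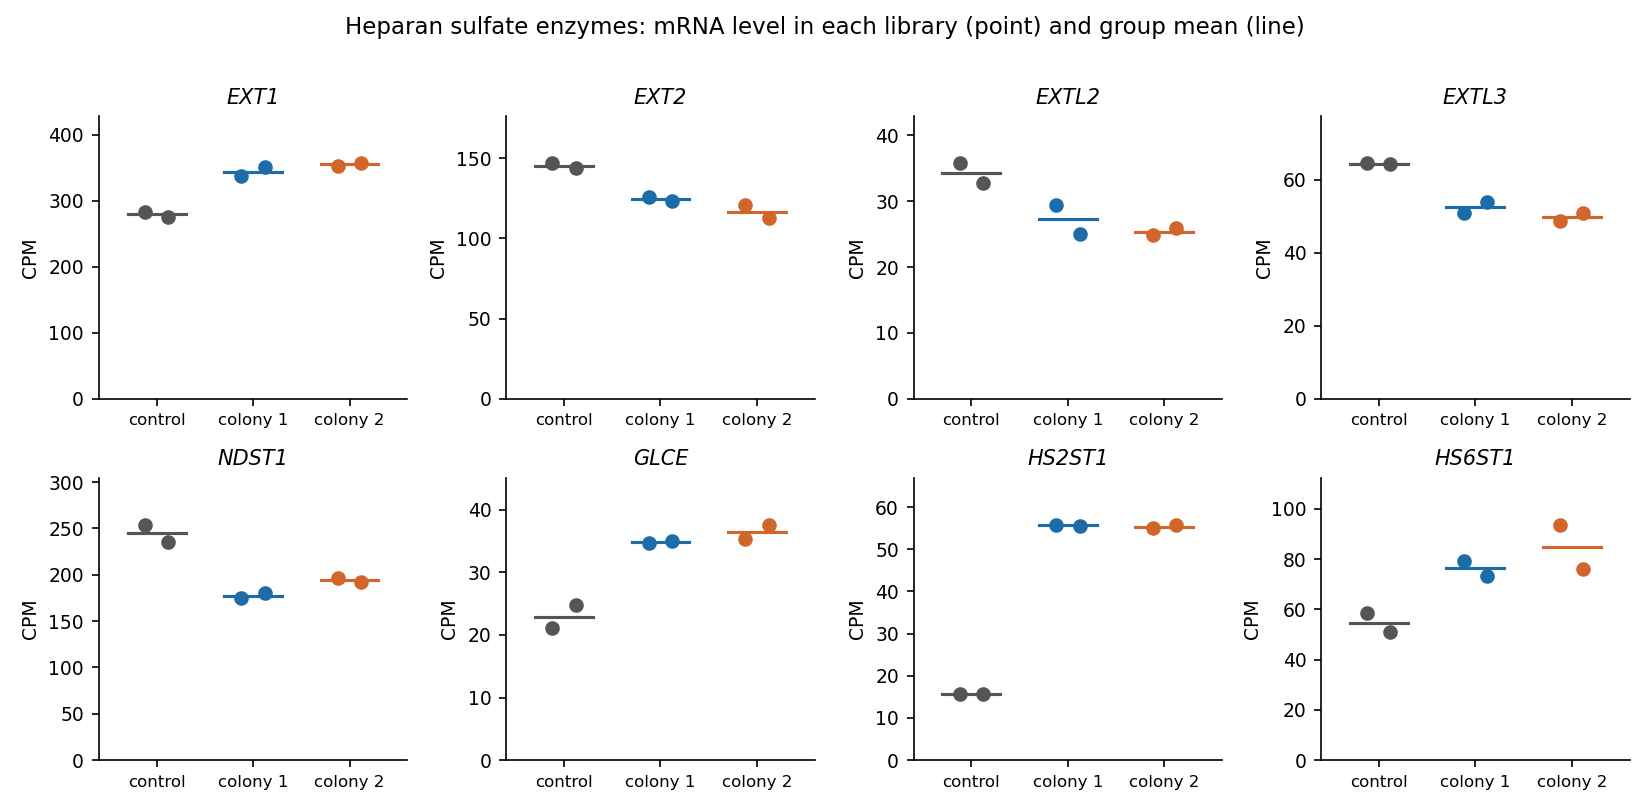
Each panel plots 1 enzyme gene in CPM on a linear axis from 0, with a point for each of the 2 libraries of a group and a line at the group mean. HS2ST1 goes from 15.7 CPM in control to 55.7 and 55.4 CPM in the colonies, while NDST1, EXT2, EXTL2 and EXTL3 are lower in both colonies than in control.

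Over all 13675 genes tested, limma called 44.7% at an adjusted p under 0.05, with 23.2% higher and 21.5% lower in knockdown. These are 3171 and 2944 genes, and with each library's median subtracted they were 2675 and 3511. Since the set was built with this comparison in view, no calls are read for its members. The median log2 difference was 0.03 over the 8 detected enzymes and 0.0051 over all genes tested. All 4 knockdown libraries lay above both controls for 4 of the enzymes and below both for the other 4, beside 27.8% and 25.8% of all genes tested, and nothing is read from that count either. Subtracting each library's median moved every log2 difference by −0.048 and left the direction of each of the 8 as it was.

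The comparison of colony 2 with colony 1 asks whether the enzymes differ between the knockdown colonies, and it was not used to choose them. None of the 8 detected enzymes was called by limma, against 2.28% of all genes tested, 0.629% higher and 1.65% lower in colony 2. At an unadjusted p under 0.05 the count was also 0 of 8, against 13.7% of all genes. For HS2ST1 the difference of colony 2 minus colony 1 was −0.0075, with a 95% confidence interval from −0.22 to 0.21 (limma adjusted p = 0.988). The widest point estimates were those of HS6ST1 at 0.14 (95% confidence interval −0.06 to 0.35, limma adjusted p = 0.559) and NDST1 at 0.13 (−0.01 to 0.27, limma adjusted p = 0.412). For the other 5 enzymes the estimates lay between −0.09 and 0.06, and their intervals between −0.34 and 0.30. These intervals bound the differences that the libraries allow and do not show that the colonies are alike.

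**Figure D2:**
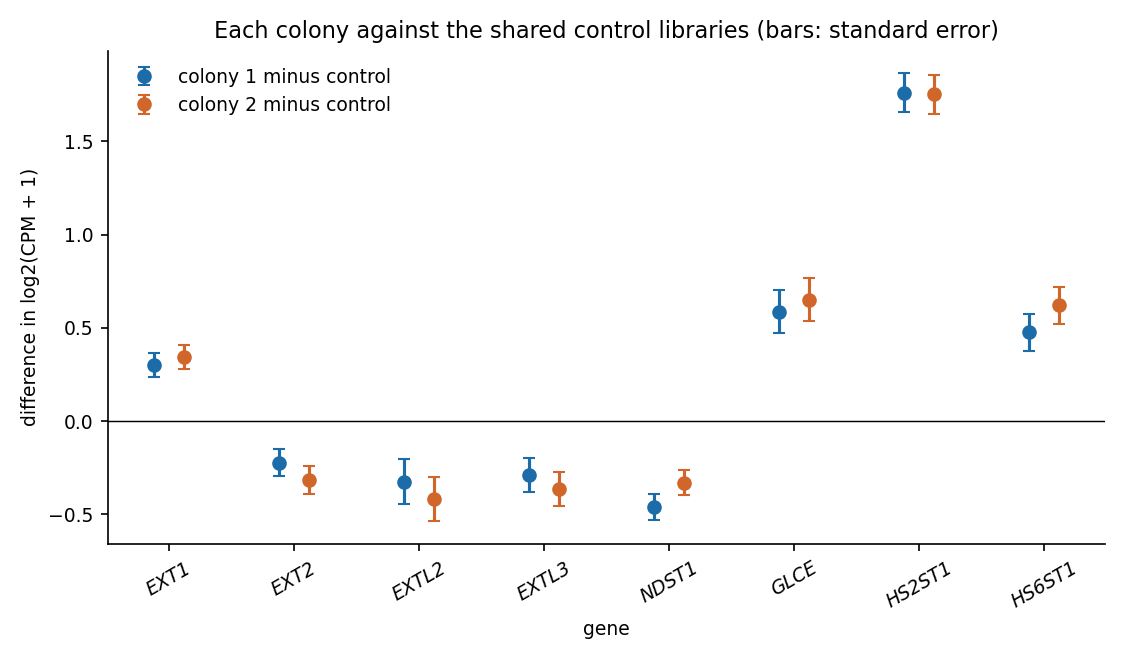
Points give the difference in log2(CPM + 1) of colony 1 and of colony 2 from the 2 control libraries, which both comparisons share, with bars for the standard error. HS2ST1 stands at 1.76 and 1.75, GLCE at 0.59 and 0.65, and NDST1 at −0.46 and −0.33.

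Levels can be set side by side between genes only per length, here per kilobase of the longest protein coding transcript in GENCODE's basic set. In control, EXT2 led at 42.1 ± 0.546 CPM per kilobase, before EXT1 at 33.8 ± 0.618 and NDST1 at 30.5 ± 1.65 (SD, n = 2). HS6ST1 followed at 13.9 ± 1.36, then EXTL3 at 9.93 ± 0.0221 and EXTL2 at 8.61 ± 0.519. GLCE at 4.55 ± 0.502 and HS2ST1 at 2.33 ± 0.00188 were the least abundant of the 8. For HS2ST1 this SD is again smaller than counting error alone. No neighbours in this order had overlapping control libraries. In knockdown, HS2ST1 stood at 8.24 ± 0.0557 CPM per kilobase (SD over 4 libraries of 2 colonies) in place 5, and its libraries, at 8.16 to 8.29, overlapped those of EXTL3 at 7.52 to 8.32. EXT1 at 42.3 ± 1.05 was then above EXT2 at 34.9 ± 1.63. With the union of all exons as the length, EXT1 already led in control, at 33.6 against 27.5 CPM per kilobase for EXT2, and HS2ST1 was again in place 8 in control and in place 5 in knockdown. By that length EXTL2, at 7.09 CPM per kilobase, stood above EXTL3, at 4.87, in control, and EXTL3 was in place 8 in knockdown, at 3.87 against 7.48 for HS2ST1. The order of EXT1 and EXT2 in control, and the place of EXTL3, therefore depend on the length used.

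**Figure D3:**
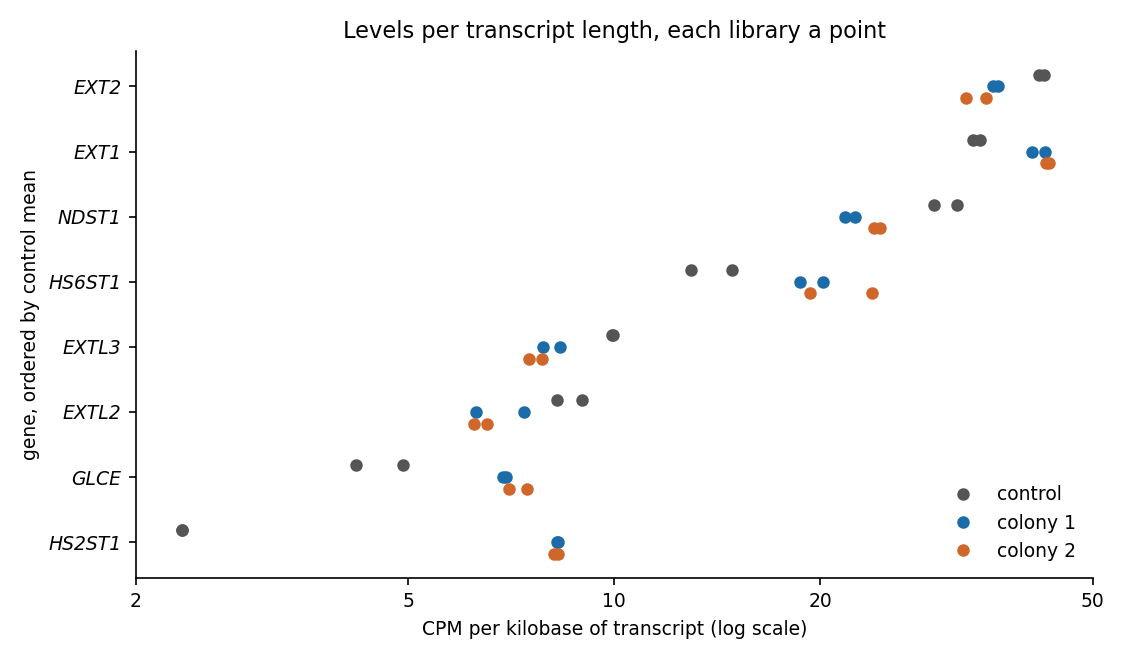
Each point is a library, in CPM per kilobase of transcript on a log axis, with genes ordered by their control mean. HS2ST1 moves from the lowest control level, 2.33, to 8.24 in knockdown, near EXTL3 and GLCE at 7.88 and 7.08.

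The genes whose profile over the 6 libraries was nearest to that of HS2ST1 were TMED5, STARD3NL, TTPAL, CPD and CAV2. Nearness was the root mean square difference between log2(CPM + 1) values set to 0 at the control mean, among 10066 other genes of at least 10 CPM on average. It came to 0.067 for TMED5, a transmembrane protein of the ER-to-Golgi route, 0.075 for STARD3NL and 0.090 for TTPAL. CPD, a carboxypeptidase of the trans-Golgi, followed at 0.13 and CAV2, caveolin 2, at 0.14. TMED5 was read at 37.3 and 41.9 CPM in control and at 134 to 147 CPM in knockdown. All 5 hold the 7-base sequence in their 3′ untranslated region, and 4 of these regions are between 2420 and 5175 nt long. The sequence had been found among the strongest rises, to which these 5 belong.

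The rest of the pathway was taken from a list of 62 further genes, of which 48 passed the filter. Limma called 17 of them higher and 10 lower in knockdown, beside 23.2% higher and 21.5% lower over all genes tested. Their median log2 difference was 0.08. NDST3, counted among the 17, passed the filter only through the knockdown libraries. The rises with the largest log2 differences among the others were those of SLC35B2, HS3ST1 and HS3ST3B1, and the largest fall was that of TGFBR3. Of the 14 genes that did not pass, 8 were listed at 0 in every library.

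SLC35B2 encodes a transporter that brings PAPS into the Golgi, and on the log2(CPM + 1) scale it had the largest rise of the 48. It was read at 54.8 and 47.4 CPM in control, 145 and 136 in colony 1 and 136 and 142 in colony 2. Its knockdown libraries all lay above the controls, at a ratio of 2.73 and a log2 difference of 1.43 (SE 0.07, limma adjusted p = 1.4e-14). SLC26A2, the plasma membrane sulfate transporter, and BPNT2, the Golgi phosphatase that clears the by-product of sulfation, are named after their values were seen. SLC26A2 was read at 22.5 and 18.8 CPM in control, 44.7 and 36.6 in colony 1 and 44.7 and 42.3 in colony 2, a log2 difference of 0.99 (SE 0.10, limma adjusted p = 1.8e-08). BPNT2 was read at 66.7 and 68.7 CPM in control and between 107 and 118 CPM in knockdown, a log2 difference of 0.75 (SE 0.07, limma adjusted p = 1.3e-09).

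PAPS itself is made by PAPSS1 and PAPSS2. PAPSS2 had a log2 difference of 0.05 (SE 0.07, limma adjusted p = 0.591) and PAPSS1 one of −0.18 (SE 0.08, limma adjusted p = 0.0572). With a 10 CPM filter, median centring or the replicate block, PAPSS1 was called lower (limma adjusted p = 0.0470, 0.0172 and 0.0235). It stood at 64.9 and 67.1 CPM in control and at 66.0 and 63.8 CPM in colony 1, while colony 2 had 52.3 and 52.0 CPM. Its difference of colony 2 minus colony 1 was −0.31 (limma adjusted p = 0.0594), which did not pass. SLC35B3, the second Golgi PAPS transporter, had a log2 difference of 0.04 (limma adjusted p = 0.785). In all, the list of sugar nucleotide and sulfate donor supply had 7 of 18 genes higher and 2 lower, with a median of 0.13. Over all genes tested, 23.2% were called higher and 21.5% lower.

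A 3′ untranslated region was found by symbol for 47 of the listed genes, and 3 of these, or 6.38%, held the 7-base sequence. They were SLC35B2 and SLC26A2, which rose, and PXYLP1, which was not called. The occurrences in SLC35B2 and SLC26A2 are shown because these genes, like HS2ST1, were higher in knockdown, and that of PXYLP1 is not shown. Since the sequence was chosen from the changes themselves, these occurrences too are a description and support nothing about them. They lie at chr6:44254497-44254525 on the minus strand for SLC35B2, and for SLC26A2 on the plus strand at chr5:149982504-149982532, chr5:149984592-149984620 and chr5:149986589-149986617.
SLC35B2: cccatcttccaGTAAGCAgtttattctga
SLC26A2 site 1: aggataaatagGTAAGCAcaaagagctct
SLC26A2 site 2: cggaggttgcaGTAAGCAgagattgtgcc
SLC26A2 site 3: acagttaaaaaGTAAGCAttgtagtaaat
SLC26A2 holds 3 copies in 5592 nt, and 0.865% of the 12135 genes searched hold more than 1. The median region of those genes was 1360 nt, and neither matching for length nor masking of repeated genomic sequence was done. NDST3, HS3ST1 and HS3ST3B1 hold none in the regions searched. BPNT2 was not searched, since no region was found under that symbol in the GENCODE release used.

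**Figure D4:**
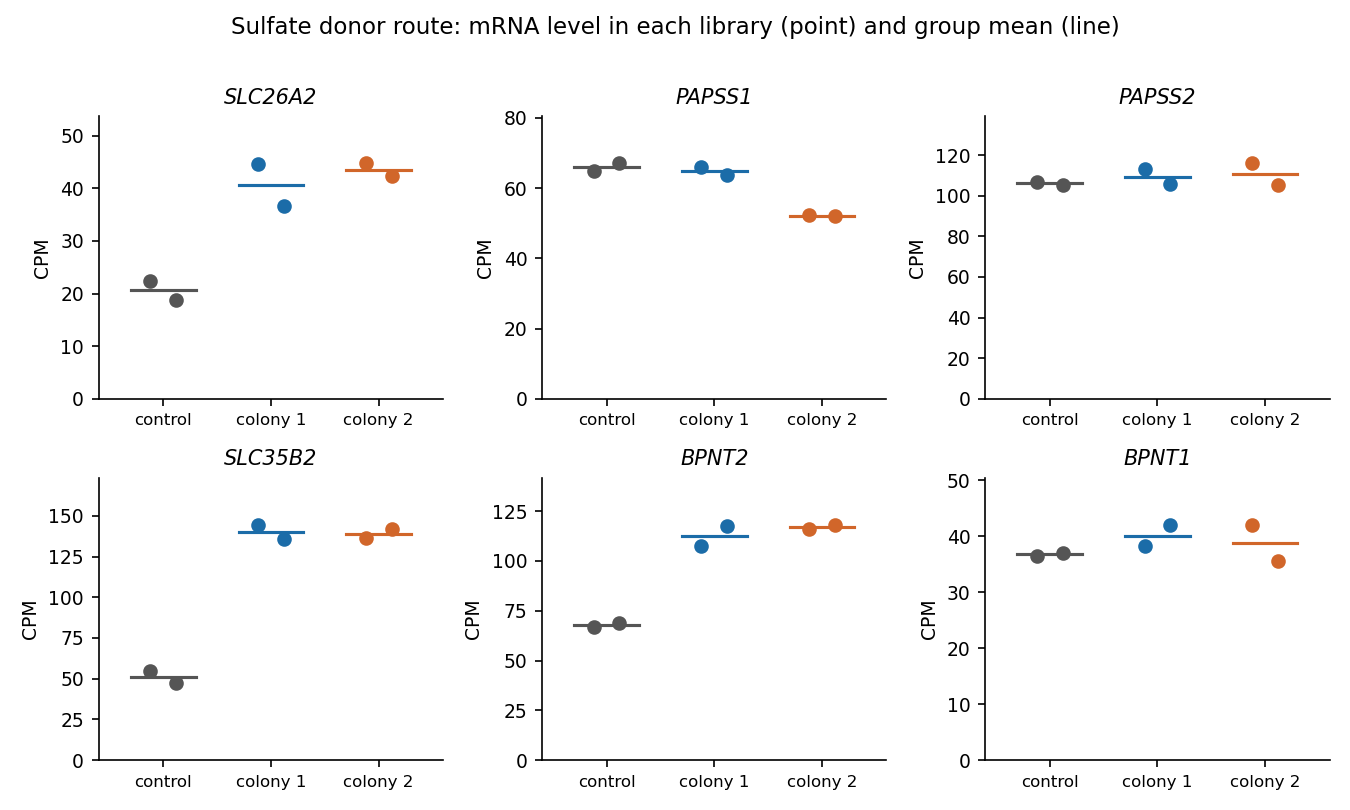
Each panel plots a gene of sulfate uptake, PAPS synthesis, Golgi import or by-product removal in CPM from 0, with a point per library and a line at the group mean. SLC26A2, SLC35B2 and BPNT2 are higher in all 4 knockdown libraries, whereas PAPSS2 overlaps between the groups and PAPSS1 is lower only in colony 2.

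Of the other sulfation enzymes of the chain, 3 sulfotransferases for the 3-O position and NDST3 passed the filter. HS3ST1, which makes the site that antithrombin binds, was read at 10.8 and 9.21 CPM in control, 21.2 and 22.8 in colony 1 and 22.9 and 20.8 in colony 2, a log2 difference of 1.06 (SE 0.12, limma adjusted p = 9.8e-08). HS3ST3B1, whose product is a differently placed 3-O-sulfate, was read at 17.1 and 11.7 CPM in control, 28.2 and 27.2 in colony 1 and 28.5 and 35.5 in colony 2, a difference of 1.02 (SE 0.13, limma adjusted p = 7.2e-07). HS3ST5 had a difference of −0.44 (SE 0.24, limma adjusted p = 0.138) and was not called. NDST3, an N-deacetylase and N-sulfotransferase like NDST1, is given without a test because it passed the filter only where it was high. It was read at 1.23 and 0.300 CPM in control and between 1.72 and 3.57 CPM in knockdown, and its log2 difference was 1.09 with the pseudocount of 1 used here, 1.88 with 0.1 and 0.41 with 5. The other 7 of the 11 genes listed did not pass the filter.

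Core proteins, the carriers of the chains, had 5 of 10 tested genes lower and 3 higher, with a median of −0.32, beside 21.5% and 23.2% of all genes. Without control replicate 2 the count was 5 lower and 2 higher, with SDC2 and COL18A1 no longer called (limma adjusted p = 0.0635 and 0.170) and HSPG2 called. TGFBR3, the part-time proteoglycan betaglycan that presents TGF-beta, fell by 1.197 on the log2 scale (SE 0.09, limma adjusted p = 5.9e-11), from 62.8 and 65.2 CPM to between 25.5 and 28.4 CPM. AGRN, the basement membrane proteoglycan agrin, was read at 920 and 802 CPM in control and at 526 to 623 CPM in knockdown, a difference of −0.57 (SE 0.07, limma adjusted p = 4.1e-06). Of the 4 syndecans, named after their values were seen, 3 were lower, with SDC4 at −0.49 (SE 0.07, limma adjusted p = 8.5e-07), SDC2 at −0.34 (SE 0.10, limma adjusted p = 0.00694) and SDC3 at −0.31 (SE 0.07, limma adjusted p = 6.4e-04). SDC1 was higher, at 0.55 (SE 0.08, limma adjusted p = 2.3e-06). HSPG2, perlecan, was read at 976 and 712 CPM in control, which lie far apart. It stood at 535 and 478 CPM in colony 1 and at 679 and 562 CPM in colony 2, with replicate 1 the higher in every group. Its difference of −0.58 (SE 0.17, limma adjusted p = 0.0592) did not pass, and over the alternatives the adjusted p ran from 1.3e-23, with the replicate block, to 0.190. Without control replicate 1 the difference was −0.35 and without control replicate 2 it was −0.80, each with an SE of 0.09. In these fits a single control is left, so the spread between the controls no longer enters the SE.

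Among the 7 linker genes, 6 were tested, 2 rose and 1 fell, with a median of 0.21, beside 23.2% and 21.5% of all genes. B3GALT6, which adds a galactose of the linker and is named after its values were seen, rose by 0.61 (SE 0.09, limma adjusted p = 3.7e-06). Sugar nucleotide transporters differed in direction, with SLC35D1 at −0.56 (SE 0.10, limma adjusted p = 7.0e-05) and SLC35D2, also named after its values were seen, at 0.55 (SE 0.09, limma adjusted p = 2.3e-05). Lysosomal degradation had 1 of 8 genes higher and 2 lower, with a median of −0.05, beside 23.2% higher and 21.5% lower over all genes. Of the 2 lower, IDS lost its call without control replicate 1 (limma adjusted p = 0.273) or colony 2 replicate 2 (limma adjusted p = 0.0619). Of the enzymes that edit or cut chains outside the cell, SULF1 and HPSE2 were listed at 0, SULF2 was not called (−0.32, limma adjusted p = 0.210), and heparanase, HPSE, named after its values were seen, rose by 0.30 (limma adjusted p = 0.0168). The call of HPSE was lost without control replicate 1 (adjusted p = 0.0782), control replicate 2 (0.0614) or colony 2 replicate 2 (0.0554).

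**Figure D5:**
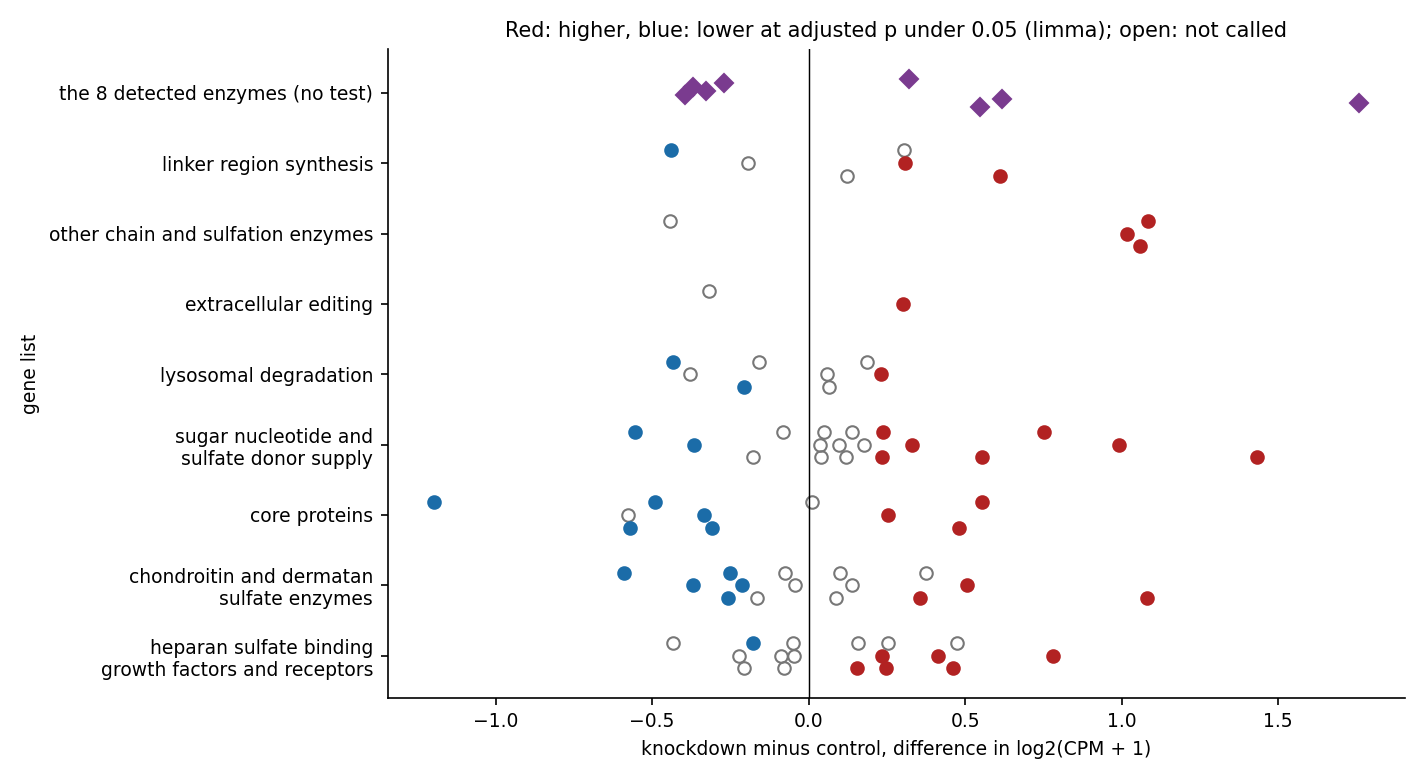
Each point is a gene's difference in log2(CPM + 1) between knockdown and control, by gene list, filled where limma called it and open where it did not. The diamonds are the 8 detected enzymes of the set, shown without a test, and NDST3, CHSY3 and FGF1 passed the filter only through the knockdown libraries. SLC35B2 at 1.43 and TGFBR3 at −1.197 lie at the ends of the tested lists.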

How the data were processed

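The deposited values were CPM, reads per gene scaled to a library size by the authors. Per the submitters' processing notes, the tools were Trim Galore and HISAT2, and the builds listed there are hg38 and mm10. The sources used here do not give the counting program, its annotation, its strand setting or the scaling. Of 52142 rows, 15200 carried no symbol (2.50% to 2.62% of a library's CPM) and 10 shared 5 symbols, so 36932 were kept. All values were whole multiples of the column's smallest value within 1e-06.

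Genes of at least 1 CPM on average, 13675 in all, were fitted as log2(CPM + 1) with limma-trend (limma 3.58.1, R 4.3.3, robust prior, 3 groups, shared spread), with two-sided tests and Benjamini-Hochberg adjustment. The fit was tested on simulated data. Members, lists and the 7-base sequence were chosen with earlier results of these data known. All 10 enzymes are named, and from the other pathway genes and each companion list at most 4 called genes in each direction with an absolute log2 difference of at least 0.5. Others are said to be named after their values were seen. The 5 genes nearest to HS2ST1 were taken by rule. Positions and transcripts came from GENCODE release 29 (GRCh38), in which all 10 symbols matched. The alternatives were other pseudocounts, filters, centring, a replicate block, the knockdown as 1 group, a prior that is not robust, and each library left out.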

Additional observations from a re-analysis of the deposited data

How the results depend on the processing

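The 4 higher and 4 lower enzymes kept their direction under each of the 14 alternatives run. That is no check of the directions, since these alternatives could not reverse them. Control and knockdown values of each enzyme do not overlap, so neither a left-out library nor another pseudocount can turn a sign. The filters, the replicate block, the knockdown as 1 group and the other prior leave the differences unchanged. Median centring moved them by −0.048, while the difference nearest to no change was −0.27, for EXT2. Colony 2 against colony 1 gave 0 called enzymes under each alternative that has this comparison. The number of other pathway genes called was 24 to 31 against 27, and 24 to 30 with a library left out. With a replicate block, 1036 genes differed between the colonies against 312, and with a library left out 137 to 452 did. The lowest counts, 170, 137 and 168, came without colony 1 replicate 2, colony 2 replicate 1 and colony 2 replicate 2, which leaves a lone sample that is assumed to vary like the other groups. Replicate 1 deviations correlated at 0.119 to 0.159 between groups, over genes. The labels give only a shared replicate number, so the block was kept as an alternative. Whether replicates of the same number were handled together is not given and was not tested. The difference of HS2ST1 was 1.81 with a pseudocount of 0.1 and 1.55 with one of 5. The differences of GLCE and NDST1 without a control library were 0.51 to 0.73 and −0.45 to −0.34. Among the alternatives that keep every library, HSPG2 passed with the replicate block, a 10 CPM filter and median centring. It also passed with the knockdown as 1 group and with a prior that is not robust. The cause of these passes was not tested. Without control replicate 1 or 2 its SE was 0.09 against 0.17, since the spread between the controls then drops out. Its difference was −0.35 or −0.80 in these fits. It was −0.62 or −0.54 without colony 1 replicate 1 or 2, and −0.64 or −0.51 without colony 2 replicate 1 or 2. The count tests planned for whole reads (edgeR and DESeq2) were not run, since the values were taken as CPM. Groups of 2 libraries limit every SD here.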

Other observations

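Chondroitin and dermatan sulfate chains start from the same linker, and their enzymes were set beside those of heparan sulfate. Of 16 listed genes 15 were tested, 3 were higher and 5 lower in knockdown by limma, with a median log2 difference of −0.04, beside 23.2% higher and 21.5% lower over all genes. Without either control library the count was 3 higher and 3 lower. CHST15, which sulfates chondroitin at a further position, was read at 142 and 147 CPM in control, 97.1 and 101 in colony 1 and 97.5 and 87.2 in colony 2, a difference of −0.59 (SE 0.07, limma adjusted p = 7.5e-08). CHST14, the dermatan 4-O-sulfotransferase, rose from 15.6 CPM in each control to between 20.2 and 25.6 CPM (0.51, SE 0.12, limma adjusted p = 8.1e-04). CHSY3, a chondroitin synthase counted among the 3, passed the filter only through the knockdown libraries and is given without a test. It was read at 0.204 and 0.601 CPM in control and between 1.61 and 3.03 CPM in knockdown, a log2 difference of 1.08 with a pseudocount of 1, 2.13 with 0.1 and 0.37 with 5.

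Of 22 listed growth factors, receptors and guidance proteins that bind heparan sulfate, 17 were tested, 6 were higher and 1 lower, with a median of 0.16, beside the same 23.2% and 21.5%. Without control replicate 2, 3 were higher and 0 lower, since FGF2, FGF5, FGFR1 and HBEGF lost their calls (limma adjusted p = 0.322, 0.222, 0.467 and 0.214). SLIT2, a secreted guidance protein, was read at 25.2 and 18.7 CPM in control and at 35.7 to 39.6 CPM in knockdown (0.78, SE 0.11, limma adjusted p = 1.6e-06). Of these lists, 0 genes were called between the colonies by limma, as were 0 of the 48 other pathway genes. Over all genes tested 2.28% were called, so nothing is read from these counts.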
